A study of Mus musculus with 2 samples.

Results

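The epidermal differentiation complex is a run of neighbouring genes on mouse chromosome 3, many of which encode proteins of the cornified envelope. This envelope is the protein shell which replaces the membrane of a keratinocyte as it dies at the surface of the skin. Members of the complex were taken as the called regions with a midpoint between bases 90200000 and 93600000 of chromosome 3 (mm9). This span of 3.4 Mb was set by position and not by any measured value. The choice was made with earlier results of these data known. Of the 25592 regions of sample 1, 17 lay in this span, and of the 42619 regions of sample 2, 25 did. Overlapping regions of both lists were merged, which left 28 members out of 47560 merged regions. The span held 1.30% of the sample 1 regions and 1.09% of the sample 2 regions on chromosome 3.

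The regions come from chromatin immunoprecipitation followed by sequencing (ChIP-seq) of mouse corneal epithelium at postnatal day 7, freed from the underlying tissue with dispase for 2 hours before fixation. There was 1 group with 2 replicates, both from animals labelled K14 DN-Clim, which carry a Myc-tagged dominant-negative form of the cofactor Clim, and the antibody was against the Myc tag. The keratin 14 promoter is active in basal cells of stratified epithelia, so the transgene is driven in that layer, where the dominant-negative form is meant to block the animals' own Clim. No wild-type or input library was analysed here, so no background can be set beside the counts. The lists hold no expression values, so the labelled tissue could not be checked against its markers. The labels do not say whether the replicates came from separate animals, and sequencing depth is unknown.

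Many genes of the complex serve a shared end in stratified epithelia. Loricrin (Lor) and involucrin (Ivl) are scaffold proteins of the envelope, small proline-rich proteins (Sprr) and late cornified envelope proteins (Lce) are cross-linked onto it by transglutaminases, and filaggrin (Flg) bundles keratin filaments and is then broken down to moisture-holding amino acids. S100 proteins are small calcium-binding proteins, and S100a8 and S100a9 form the antimicrobial protein calprotectin. In the cornea, whose surface normally does not cornify, several Sprr and S100 genes are nonetheless known to be expressed, and cornified envelope genes rise when the tissue turns skin-like. Clim binds LIM-domain transcription factors and is brought to DNA by partners.

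In the RefSeq gene table of GRCm38, used only for names and neighbour order, the block from S100a1 to S100a10 held 70 protein-coding genes, or 7.12% of the 983 on chromosome 3. Whether the span in mm9 holds exactly this block could not be checked, so these gene counts describe the gene table and not the span. Along the chromosome, 13 of the 15 S100 genes come first, among them S100a4, S100a6, S100a8 and S100a9. They are followed by Pglyrp3, whose product recognises bacterial peptidoglycan, by Lor, by the 14 Sprr genes and by Ivl. The 21 Lce genes come next, from Lce6a to Lce1m. The 7 genes of the fused S100 type, large filament-associated proteins, follow in the order Crnn, Flg2, Flg, Hrnr, Rptn, Tchh and Tchhl1. The run ends with S100a11, an envelope component, and S100a10, the partner of annexin A2. That table uses another genome build than the lists, so which gene a region lies in or next to was not analysed here, and exons, introns and start sites could not be assigned. No sequence of the build of the lists was used here, and for this reason no region sequence is printed.

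In each list, fewer regions per Mb were called in the complex than on the rest of chromosome 3. Sample 1 had 5.0 regions per Mb in the complex and 8.42 per Mb on the rest of chromosome 3, a ratio of 0.594 (exact 95% interval 0.345 to 0.954). Sample 2 had 7.35 and 14.8 per Mb, a ratio of 0.497 (0.321 to 0.736). For the 28 merged members the ratio was 0.501 (0.332 to 0.726). For the 14 members found in both lists it was 0.608, and the interval of 0.331 to 1.02 reached 1. Regions in sample 2 only were at 0.404 times the density of the rest of the chromosome (0.201 to 0.725, 11 members). For regions in sample 1 only the ratio was 0.536, with an interval of 0.110 to 1.58 that rests on 3 members. The intervals count regions as independent. In windows of 3.4 Mb on chromosome 3 the variance of the count was 6.64 times its mean in sample 1 and 4.91 times in sample 2. It was 5.57 times the mean for the merged and 6.03 times for the shared regions. For regions of 1 list only the excess was smaller, 2.32 times in sample 2 only and 1.61 times in sample 1 only. The intervals are therefore too narrow, and an end below 1 does not settle that the density was lower, in any of these sets. The ends also moved with the borders: with the span widened by 200 kb at either end the sample 1 ratio was 0.784 (0.506 to 1.16), and with it narrowed by as much the ratio of the shared members was 0.541 (0.269 to 0.972).

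**Figure D1:**
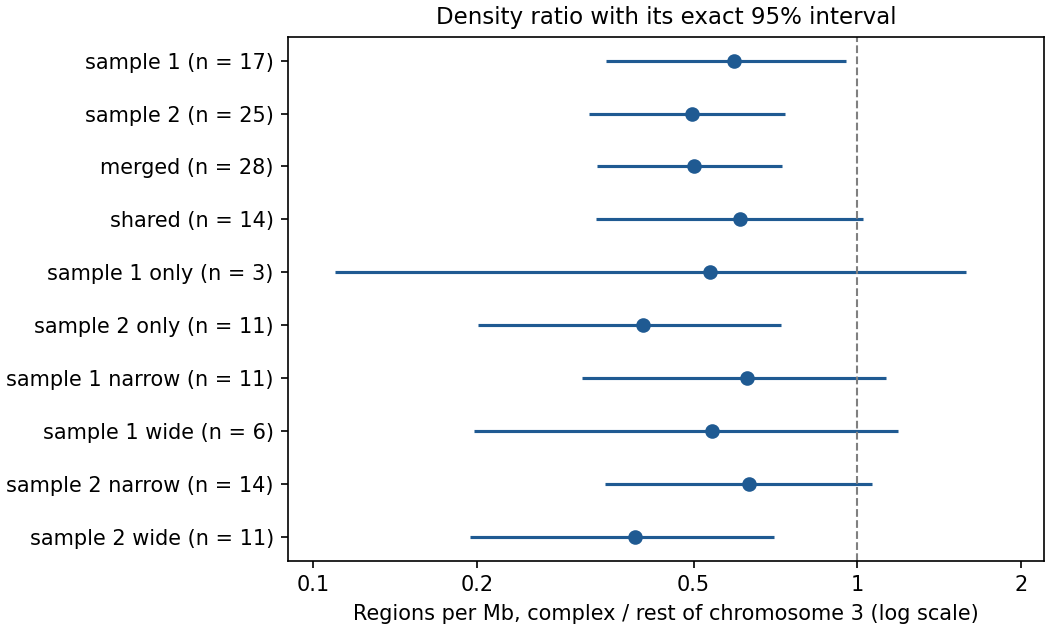
Ratio of regions per Mb in the complex to regions per Mb on the rest of chromosome 3 (horizontal log axis), for each list, the merged and shared regions, the regions of 1 list only and the narrow and wide regions of each list. Points are ratios and bars are exact 95% intervals. Every point lies below 1 (dashed line), and the interval ends below 1 for sample 1, sample 2, the merged regions, the sample 2 only regions and the wide regions of sample 2.

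Among windows of the same length laid end to end along chromosome 3, the complex had the lowest merged count. Its 28 merged regions compared with 29 to 98 (median 55) in the other 44 windows laid end to end from its borders. With windows started every 100 kb, an alternative added after the data were seen, 25 of 1463 held fewer merged regions and 7 held as many. In sample 2 the 25 members compared with a range of 25 to 87 (median 49) in the end-to-end windows, and 1 window held as few. Of the windows started every 100 kb, 33 of 1463 held fewer sample 2 regions, down to 16, and 4 held as many. Sample 1 did not share the extreme place: its 17 members compared with 7 to 63 (median 28.5), and 9 of the 44 windows held fewer. The 14 shared members compared with 5 to 55 (median 22.5), and again 9 windows held fewer. Of 697 other windows on chromosomes 1 to 19, chromosome 3 included, 20 held fewer merged regions than the complex and 3 held as many. For sample 2 regions these numbers were 16 and 6. The 11 sample 2 only members compared with 11 to 47 (median 26) in the end-to-end windows of chromosome 3. No window held fewer of them and 1 held as many. Of the windows started every 100 kb, 15 of 1463 held fewer sample 2 only regions and 18 held as many. For the 3 sample 1 only members, 8 of the 44 end-to-end windows held fewer. The extreme place of the complex was thus limited to the end-to-end windows of chromosome 3. It was seen in sample 2, the longer list, in the sample 2 only regions and in the merged set.

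**Figure D2:**
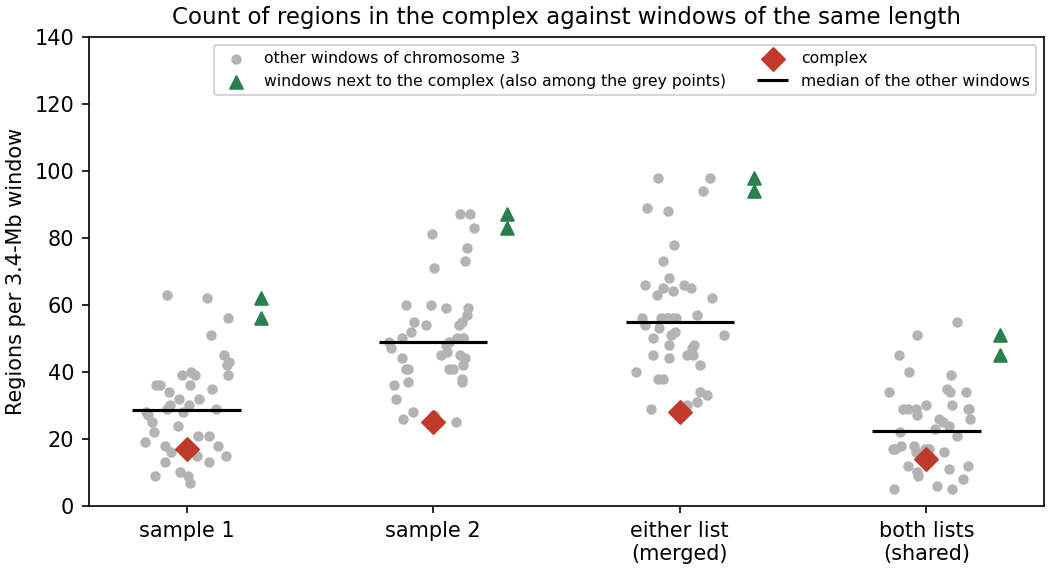
Count of regions in windows of 3.4 Mb laid end to end along chromosome 3 (vertical axis), for sample 1, sample 2, the merged and the shared regions. Red diamonds are the complex, green triangles the windows on either side of it, grey points the other windows and black lines their medians. The complex is lowest at 28 among the merged regions, while in sample 1 and among the shared regions 9 windows lie below it.

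The windows on either side were among the fullest of the chromosome. The window before the complex held 98 merged regions, equal to the highest count, and the window after it held 94. In sample 1 they held 56 and 62 regions, against 17 in the complex. In sample 2 they held 87 and 83, against 25. Both replicates thus showed a dip between fuller flanks. Per 200 kb, the complex had a median of 1 merged region, with 3 of 17 bins empty. The window before it had a median of 5 and the window after it a median of 4, and neither had an empty bin. At the left border the counts fell from 13 merged regions in the last 200 kb before it to 5 in the first 200 kb inside, but the 13 belong to a single full bin, and the 3 bins before it held 4, 5 and 3. At the right border there were 3 merged regions in the last 200 kb inside and 2 in the first 200 kb beyond. Neither border marked a clear change of level.

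**Figure D3:**
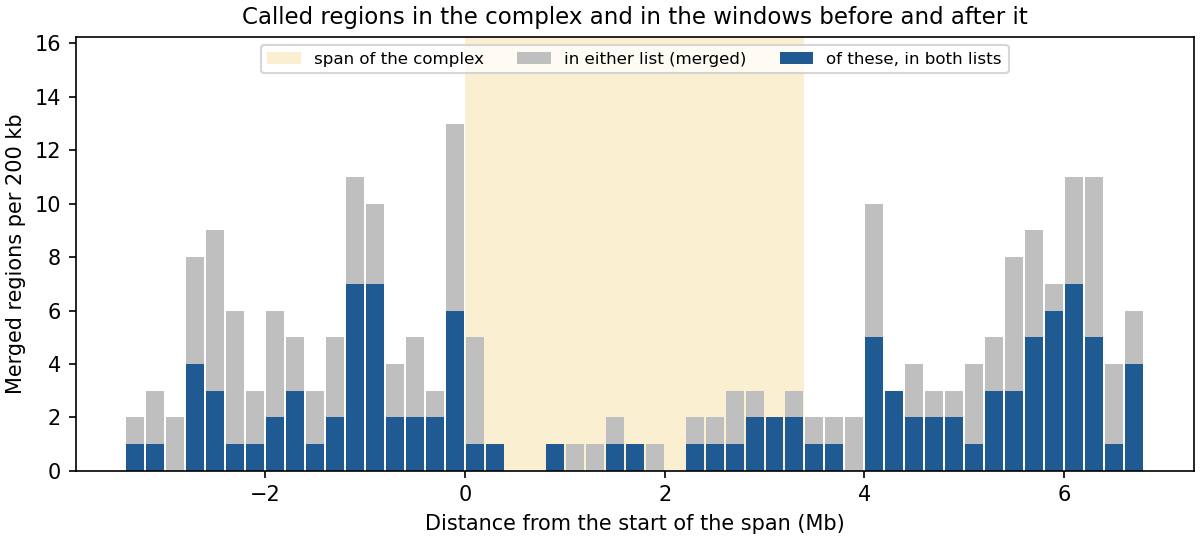
Merged regions per 200 kb (vertical axis) against distance from the start of the span, in the complex (yellow) and in 3.4 Mb on either side. Grey bars are regions of either list and the blue part those found in both. Bins of the complex hold 0 to 5 regions, and bins before and after it 2 to 13 and 2 to 11.

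Along the complex the members were uneven. Divided into 4 equal parts from left to right, it held 7, 4, 6 and 11 merged members, and 3, 1, 3 and 7 shared ones. The last part, next to the right border, thus held 7 of the 14 shared members. Of the 34 windows of 100 kb, 13 held no member (38.2%, exact 95% interval 22.2 to 56.4%), compared with 24.8% of the other windows of chromosome 3. The interval includes that value. With windows offset by 50 kb the share was 48.5%, and its interval of 30.8 to 66.5% lay above it. Empty windows come in runs, as those from 90500000 to 90999999 lie in 1 gap, so both intervals are too narrow. The 24.8% was counted without the offset. An excess of empty windows is therefore not settled. The fullest window ran from 90200000 to 90299999 and held 4 members, of which 1 was shared. The next, from 92800000 to 92899999, held 3, again with 1 shared. The windows from 93100000 and from 93400000 held 2 each, and both members of the former were shared. Of the 34 windows, 2 held 3 or more merged regions, against 357 of the 1530 windows elsewhere on the chromosome. The fullest of those 1530 held 9, but a maximum over more windows is higher by construction.

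Several long stretches held no member. The longest ran from 90420298 to 91034152 without a region of either list, 614 kb, and 1 of the 2543 gaps between neighbouring merged regions of chromosome 3 was longer. The next ran from 91203222 to 91544951 (342 kb) and from 92172236 to 92498745 (327 kb), with 28 and 37 longer gaps on the chromosome. The median gap within the complex was 70.4 kb, against 35.0 kb over the whole of chromosome 3. Of the 27 gaps, 1 was at most 5 kb (3.70%, exact 95% interval 0.0937 to 18.97%), and the interval includes the 12.4% of the whole chromosome. That close pair lay 651 bp apart, a shared member from 92803207 to 92803277 and a sample 2 only member from 92803929 to 92804012.

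The share of members found in both lists was within counting error of the background. Of the 17 sample 1 members, 14 had an overlap of 1 bp or more with the sample 2 list (82.4%, exact 95% interval 56.6 to 96.2%). Over the whole sample 1 list the share was 80.4%, and on the rest of chromosome 3 it was 80.5%. Of the 25 sample 2 members, 14 overlapped a sample 1 region (56.0%, 34.9 to 75.6%), against 48.4% over the whole list and 45.8% on the rest of the chromosome. Both intervals include the background shares. Their width means that differences of 10 percentage points could not be resolved with so few members.

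The strongest shared members were ranked by the mean of their score percentiles, the percent of regions in a list that score at or below a region. The score is the authors' own value per region, and it is used here only for ranks within a list. The first lay from 90269775 to 90269975, with scores of 240.08 in sample 1 and 135.89 in sample 2, percentiles 79.1 and 86.3. It sat 69.9 kb inside the left border, in the fullest 100 kb of the complex. The second, from 93352729 to 93352820, had the highest sample 1 score of all members, 399.72 (percentile 97.3), and a sample 2 score of 96.30 (percentile 63.7). The third, from 91966869 to 91966944, was alike in this respect, with 328.07 (93.4) in sample 1 and 97.78 (65.0) in sample 2. It stood alone, with the nearest regions of either list 207 kb before and 205 kb after it. The fourth, from 90420221 to 90420297, showed the reverse order, with 186.08 (60.1) in sample 1 and 177.80 (95.2) in sample 2. This region marks the left edge of the 614 kb gap. The fifth, from 92498746 to 92498951, had scores of 189.73 (61.4) and 138.93 (87.3).

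The highest sample 2 score of the complex, 180.21 (percentile 95.4), belonged to the region from 92691928 to 92692052. Its partner in sample 1 scored 164.92, percentile 48.7. The next in sample 2 were the region at 90420221 and a region in that list only, from 91203168 to 91203221, with 142.50 (88.6). The last is the left edge of the second longest gap. In sample 1 the score next below those at 93352729 and 91966869, 264.29 (85.0), also belonged to a region of that list only, from 90254777 to 90254852, and the nearest sample 2 region lay 14.9 kb away. High scores were therefore not limited to shared members.

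The other sample 1 only members lay from 92745493 to 92745565 (score 219.64, percentile 73.3) and from 93056177 to 93056247 (133.48, 29.9). The nearest sample 2 region was 53.4 kb from the first of them and 111 kb from the second. The 11 sample 2 only members ranged from 50.80 (percentile 3.62), the first member from the left, at 90213054 to 90213189, up to the region at 91203168. The next highest of them lay from 93413497 to 93413557 (117.98, 79.1) and from 92562787 to 92562844 (101.82, 67.8). Their median percentile was 51.5, compared with 65.7 for the shared members of sample 2. On the rest of chromosome 3 these medians were 36.1 and 62.8. In sample 1 the 3 unshared members had a median percentile of 73.3 and the 14 shared ones 59.3, the opposite order to the rest of the chromosome (34.6 and 51.9), but with 3 regions this order is not resolved.

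**Figure D4:**
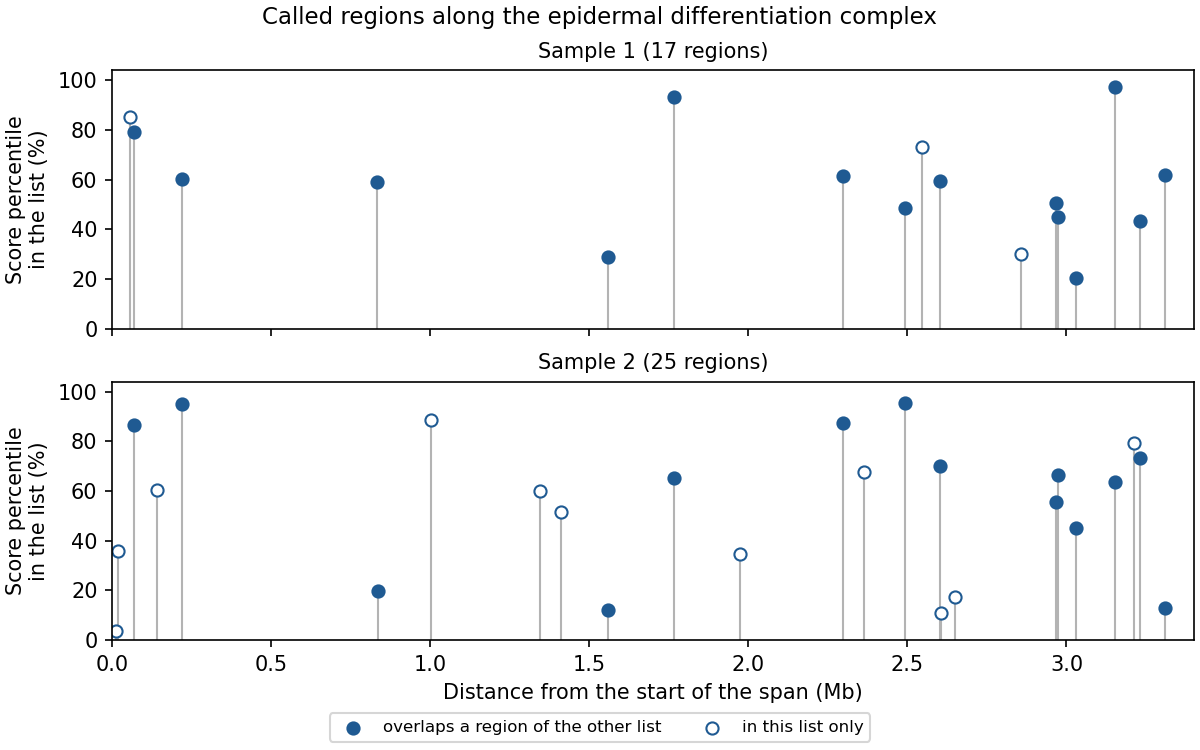
Members of sample 1 (top) and sample 2 (bottom) by distance from the start of the span in Mb (horizontal axis) and score percentile within the whole list (vertical axis). Filled points overlap a region of the other list and open points do not. Of the 14 shared members 1 lies between 0.85 and 1.70 Mb and 7 lie beyond 2.55 Mb.

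As a group the members scored somewhat higher than the rest of the chromosome, within the error. The sample 1 scores ran from 112.24 to 399.72 with a median of 185.12, and the sample 2 scores from 50.80 to 180.21 with a median of 92.65. The median percentile was 59.5 in sample 1 (95% interval from order statistics 45.0 to 73.3), against 48.5 on the rest of chromosome 3. In sample 2 it was 60.5 (35.8 to 70.1), against 49.0. Members in the upper 50% of their list numbered 11 of 17 in sample 1 (64.7%, exact 95% interval 38.3 to 85.8%) and 16 of 25 in sample 2 (64.0%, 42.5 to 82.0%), compared with 48.6% and 49.1% on the rest of the chromosome. All these intervals include the value of the rest. None of the members reached the highest scores of chromosome 3 outside the span, 941.50 in sample 1 and 486.88 in sample 2. Those are the highest of 1289 and 2265 regions, so so few members would seldom reach them.

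The same counts can be given as densities. For regions in the lower 50% of a list the ratio of the complex to the rest of chromosome 3 was 0.407 in sample 1 (exact 95% interval 0.149 to 0.892) and 0.351 in sample 2 (0.160 to 0.669). For the upper 50% it was 0.791 (0.393 to 1.43) and 0.648 (0.369 to 1.06). The intervals of upper and lower regions overlap, and the difference between them was not tested.

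Regions were classed as narrow or wide, parted at 105 bp in the first list and at 100 bp in the other. The rule for this boundary assumes a narrow and a wide population, which was not tested. Of the 17 sample 1 members, 11 were narrow (64.7%, exact 95% interval 38.3 to 85.8%), against 61.3% on the rest of the chromosome. Of the 25 sample 2 members, 14 were (56.0%, 34.9 to 75.6%), against 44.0%. Neither share differed from the rest beyond its interval. Member widths ran from 68 to 189 bp in sample 1 and from 54 to 201 bp in sample 2. Called regions covered 1.72 kb of the complex in sample 1, 506 bp per Mb, against 926 bp per Mb on the rest of chromosome 3. In sample 2 they covered 2.48 kb, 729 against 1725 bp per Mb.

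The width class of the shared members agreed between replicates in 13 of 14 pairs: 7 were narrow in both lists, 6 were wide in both, and 1, at 91034153, was narrow in sample 1 and wide in sample 2. On the rest of chromosome 3, 34.5% of the 1038 pairs were narrow in both and 24.0% wide in both. The class differed in the remainder: 28.4% were wide only in the second list and 13.1% only in the first. A like class was thus more frequent among the 14 members, but no interval was computed and the difference was not tested. The pairs are few and the width boundary rests on an untested assumption, so this contrast is a description only. Of the 6 wide pairs, 5 had a higher percentile in sample 2 than in sample 1, as had 81.9% of the wide pairs on the rest of the chromosome. The other was the pair at 91760059, with scores of 131.96 (29.0) in sample 1 and 54.68 (12.0) in sample 2. That pair and the one at 91034153, with 183.99 (59.2) and 58.65 (19.9), were the only shared members between those at 90420221 and 91966869.

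The remaining shared members lay towards the right of the complex. The region at 92803207 scored 185.12 and 104.28 in samples 1 and 2, and the pair of neighbours at 93166919 and 93174218, 7.23 kb apart, scored 168.14 and 86.24, and 158.19 and 99.62. The regions at 93228492 and 93431687 scored 112.24 and 77.06, and 155.95 and 108.88. The last member, from 93510723 to 93510798, scored 189.91 (61.8) and 55.21 (12.7). Across the 14 shared members Spearman's rho of the scores was 0.174 and Pearson's r 0.058, given as a description over regions of the same libraries. On the rest of chromosome 3 rho was 0.174 and r 0.259. The percentile was higher in sample 1 for 5 of the 14 members (35.7%), near the 39.2% of pairs on the rest of the chromosome.

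At the borders, the last sample 1 region before the span lay 33.2 kb outside it, with a score of 229.47, and the first inside lay 54.8 kb from the border, with 264.29. In sample 2 the last region before the span lay 4.93 kb outside, with 54.68, and the first inside 13.1 kb, with 50.80. On the right, the first sample 1 region beyond the span lay 2.18 kb outside, with 119.84, and the first sample 2 region 48.8 kb outside, with 125.65. The last members inside lay 89.2 kb from the right border in both lists.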

How the data were processed

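Both replicates are Myc ChIP-seq libraries of K14 DN-Clim corneal epithelium, with 24 µg of chromatin each, per the labels' protocols. Reads of both lanes were combined per replicate after alignment. Bowtie 0.12.7, bedtools 2.11.2 and mm9 stand in the submitters' processing notes, without settings. Region names carry the prefix MACS. For version, thresholds and control library, nothing is stated in the labels or files. The score was deposited by the authors with no stated meaning. The lists hold no read counts, so depth and mappable length are unknown, and regions per Mb refer to chromosome length.

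A midpoint in the span made a region a member. Regions were shared at an overlap of at least 1 bp (bedtools 2.31.1 gave the same 20582). Analysis used Python 3.11.15, numpy 2.4.6, scipy 1.17.1 and pandas 2.3.3. Chromosome 3 was taken from its first to its last region, 156.5 Mb. Intervals of shares are Clopper-Pearson, and those of density ratios follow from the exact binomial interval of the count inside. They cover counting error over regions only. With 1 group there was no test between conditions. Overlap and ratio code was tested on simulated data. The simulated counts were drawn independently, without the excess variance between windows seen here, so the intervals were not tested under it. Named regions were the 5 strongest shared members, the 3 highest-scoring members of each list, in all and in that list only, the fullest windows, the 3 longest gaps and the first and last member. Other regions were named for completeness. The boundary of widths was the emptiest 5-bp bin between an assumed narrow and an assumed wide population. Members and rules were chosen with earlier results of these data known. Coordinates count from 1.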

Additional observations from a re-analysis of the deposited data

How the results depend on the processing

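The density ratio stayed below 1 under the 21 alternatives that changed what was counted, between 0.405 and 0.840, and its interval ended below 1 in 14 of them. The intervals are too narrow and the alternatives reuse largely the same members, so these counts do not settle that the density was lower. Leaving 1 replicate out of the merged set gives back the other list, 0.497 for sample 2 and 0.594 for sample 1. Both settings are counted among the 21 but are no separate check. The ratio was sensitive to the span: widened by 200 kb at either end it was 0.691 for the merged regions, and narrowed by as much 0.405. Widening took the end of the sample 1 interval from 0.954 to 1.16, and narrowing that of the shared members from 1.02 to 0.972. With the upper 50% of each list it was 0.661, and its interval of 0.403 to 1.03 reached 1, as did those of the shared members and of either list. Against the other autosomes it was 0.431. Sample 2 reduced to as many regions as sample 1, chosen after the data were seen, gave 0.558. Leaving out 1-Mb bins with no region removed none and tests nothing. The 16 alternatives of sharing, score and width stayed within the intervals given. The share of empty windows was 48.5% with windows offset by 50 kb and 17.6% with windows of 200 kb, lower by construction. The interval of the former, 30.8 to 66.5%, lay above the 24.8% of other windows, which was counted without the offset. That interval is too narrow because empty windows come in runs. No paired analysis was possible because there is 1 group. Depth is unknown, so a region in 1 list only may have been missed in the other.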

Other observations

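The starts of shared members often fell at the same base in both lists. This was noticed after the values were seen. It held for 5 of 14 pairs (35.7%, exact 95% interval 12.8 to 64.9%), against 93 of 1038 pairs (8.96%, 7.29 to 10.9%) on the rest of chromosome 3 and 7.81% in the whole series. The 5 members start at 90420221, 91034153, 91966869, 93166919 and 93510723, and 4 of them are narrow in both lists. Of the 93 such pairs on the rest of chromosome 3, 49 were narrow in both, and 5 members are too few to set apart from that. Ends at the same base were found in 0 of 14 pairs (exact 95% interval 0 to 23.2%), an interval that includes the 7.23% of the rest of the chromosome. Starts within 1 bp of each other were found in 7 of 14 pairs (50.0%, 23.0 to 77.0%), compared with 18.3%. The count is small and was singled out, so it is a description.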
